A study of Mus musculus with 2 samples.

Results

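The GATA factors are zinc finger proteins that bind the DNA motif WGATAR, and the Friend of GATA (FOG) proteins are their cofactors. Mice carry the genes Gata1, Gata2, Gata3, Gata4, Gata5 and Gata6, and the FOG genes Zfpm1, which encodes FOG1, and Zfpm2, which encodes FOG2. GATA4 occupied sites (OS) were counted at these 8 genes by 1 rule. An OS belonged to a gene when its midpoint lay in the gene body or within 50 kb of it. Of the 8 genes, 4 had at least 1 OS, and 11 of the 4409 OS of the common list lay at them.

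GATA4 occupancy was measured by chromatin immunoprecipitation and sequencing (ChIP-seq) in whole liver of C57BL/6 x Sv129 mice, aged postnatal 2-3 months by the labels and slightly older by the methods, with the antibody GATA4 C-20. Input DNA of the same strain, tissue and age, with no antibody, was the background of the peak calls and has no peak list of its own. The methods name 2 biological replicates of 2 mice each, but the labels hold 1 ChIP sample, and the peak lists cover both replicates together. All values below therefore describe 1 pooled sample, without a replicate error and without a test. Whole liver holds hepatocytes, endothelial cells, Kupffer cells, bile duct cells and blood, and the lists do not tell in which cells a site was occupied. For Zfpm1 the paper reported, by ChIP and PCR, that GATA4 was lost after Gata4 excision in hepatocytes. It placed the occupancy at that gene in hepatocytes only, from the sites it examined by PCR and not from all OS of Zfpm1 described below. Peaks had been called with SPP, which gave 4811, and with MACS2, which gave 5867, and the common list holds the SPP peaks that MACS2 also called. The score was 1000 for every peak, so a site is given here with its number in the list, where 1 is the first. What orders the numbers is stated in no file, and no read count or enrichment was given for a site.

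GATA1, GATA2 and GATA3 are best known from blood cells, and GATA4, GATA5 and GATA6 from the heart and from organs of the gut tube, the liver included. GATA genes carry GATA motifs in enhancers of their own and of each other's loci, and GATA factors are known to bind there. FOG proteins have zinc fingers of their own but do not bind DNA at these motifs. They attach to the N-terminal zinc finger of GATA factors, and FOG1 brings in the NuRD complex, which remodels nucleosomes and removes acetyl groups from histones.

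The sequences that carry most of the description are printed here, 5′ to 3′ on the plus strand of mm9, as read from the reference genome. Capitals mark WGATAR, in which W is A or T and R is A or G, and the E-box word CATCTG. A match on the minus strand is printed as its reverse complement, such as TTATCT for AGATAA. The first is the whole OS in intron 4 of Gata2 at chr6:88153113-88153259, shown for its E-box and GATA motif, followed by the whole OS upstream of Gata2 at chr6:88139791-88139929 and the whole OS within Gata4 at chr14:63874901-63875110. The 4 that follow are stretches of Zfpm1, at chr8:124830689-124830833 within OS 109, chr8:124820560-124820733 within OS 534, chr8:124846703-124846878 within OS 3884, and chr8:124808382-124808501, which holds the last 60 bases of OS 4170 and the 60 bases beyond its end. The last is a stretch of OS 357, upstream of Gata4, at chr14:63962555-63962634.
Gata2 OS 3808: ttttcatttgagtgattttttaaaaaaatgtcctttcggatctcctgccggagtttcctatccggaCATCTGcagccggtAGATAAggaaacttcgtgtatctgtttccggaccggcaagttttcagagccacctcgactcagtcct
Gata2 OS 1764: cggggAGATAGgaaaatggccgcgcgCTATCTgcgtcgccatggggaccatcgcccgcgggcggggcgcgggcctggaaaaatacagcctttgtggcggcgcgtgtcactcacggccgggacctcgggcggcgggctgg
Gata4 OS 2032: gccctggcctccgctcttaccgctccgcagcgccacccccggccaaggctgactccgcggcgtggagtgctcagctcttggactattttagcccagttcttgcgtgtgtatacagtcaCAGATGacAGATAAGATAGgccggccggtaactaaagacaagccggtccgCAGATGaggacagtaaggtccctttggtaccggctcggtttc
Zfpm1 OS 109: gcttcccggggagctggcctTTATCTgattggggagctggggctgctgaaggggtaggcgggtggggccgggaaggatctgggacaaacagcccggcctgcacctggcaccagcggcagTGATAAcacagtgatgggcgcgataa
Zfpm1 OS 534: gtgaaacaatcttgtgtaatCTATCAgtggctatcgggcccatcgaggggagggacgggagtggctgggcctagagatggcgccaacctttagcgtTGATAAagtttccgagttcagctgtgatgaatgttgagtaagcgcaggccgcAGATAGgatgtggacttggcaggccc
Zfpm1 OS 3884: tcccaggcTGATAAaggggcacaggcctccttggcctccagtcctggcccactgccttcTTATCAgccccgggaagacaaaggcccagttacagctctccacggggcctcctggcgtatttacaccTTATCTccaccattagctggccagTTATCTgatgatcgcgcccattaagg
Zfpm1 OS 4170: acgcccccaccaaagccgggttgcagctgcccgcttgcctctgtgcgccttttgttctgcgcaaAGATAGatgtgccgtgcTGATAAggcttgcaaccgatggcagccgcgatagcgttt
Gata4 upstream OS 357: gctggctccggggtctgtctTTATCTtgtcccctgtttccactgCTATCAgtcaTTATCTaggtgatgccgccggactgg

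GATA4 occupied its own gene at 1 OS and its paralogs Gata2 and Gata6 at 2 and 1, while Gata1, Gata3 and Gata5 had 0. Of the FOG genes, Zfpm1 had 7 OS and Zfpm2 had 0. Zfpm1 thus held 63.6% of the 11 sites. As background, 6194 of the 22380 protein-coding genes of the GENCODE M1 annotation, or 27.7%, had at least 1 OS by the same rule. The mean was 0.421 OS per gene and the median was 0. A gene with 1 OS, such as Gata4 or Gata6, was therefore within the common range, and 2 OS or more were found at 2047 genes, or 9.15%. In the MACS2 list, 33.9% of protein-coding genes had at least 1 peak, and the same 4 of the 8 genes did. The plot of peaks by gene gives all 3 lists.

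**Figure D1:**
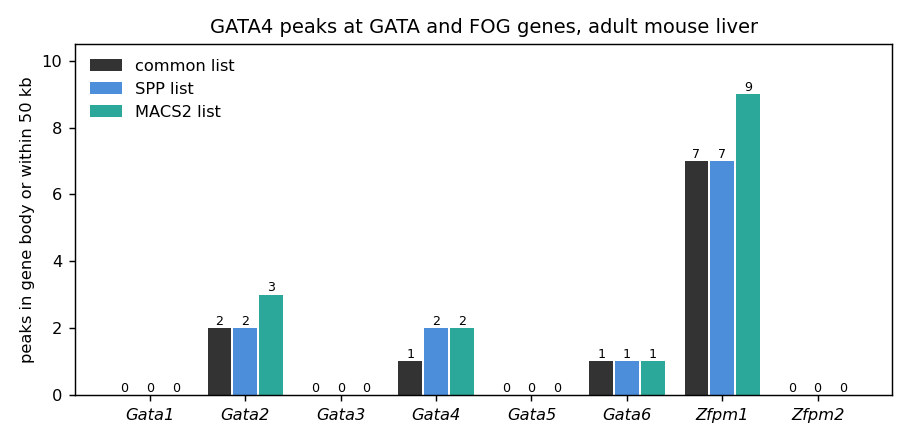
Number of GATA4 peaks in the gene body or within 50 kb (vertical axis) at each of the 8 genes (horizontal axis) in the common, SPP and MACS2 lists (bars, with the count above each). Zfpm1 had 7, 7 and 9 peaks, and Gata1, Gata3, Gata5 and Zfpm2 had 0 in every list.

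Gata4 (ENSMUSG00000021944.8, minus strand, chr14:63817759-63890529 in mm9) encodes the immunoprecipitated factor. Its OS 2032 at chr14:63874901-63875110 was 210 bp wide. It lay in intron 1 of the longer transcripts and 10897 bp upstream of the nearest start of the shorter ones, so it was inside the gene by the annotation and upstream of its other starts. The nearest start of another protein-coding gene, Neil2, which encodes a DNA repair glycosylase, was 62627 bp away. The site stood at 46.1% of the common list, but the MACS2 peak over it had number 778, at 13.3% of that list. Its GATA motifs AGATAA and AGATAG overlapped by 1 base, and CATCTG words lay on both sides of them. The window of Gata4 held 309 matches to WGATAR, of which 2, or 0.647%, were in the OS.

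Further peaks at Gata4 were in 1 list only or farther away. SPP alone called a peak (3774) of 320 bp with 1 WGATAR in the gene body. MACS2 alone called a peak (5734) of 1278 bp over exon 2 with 0 WGATAR, at 97.7% of its list. Outside the 50 kb window, 3 more common OS lay upstream, at 54374, 66994 and 72061 bp from the most distal Gata4 start. Gata4 was the nearest protein-coding start of each, with Blk, which encodes a Src family kinase, next at 91121, 78500 and 73433 bp. The farthest of them, OS 357 at chr14:63962453-63962728, was the earliest in the lists, at 8.1% of the common list and with MACS2 number 89, at 1.52%. Its stretch above of 80 bases holds its 3 WGATAR matches. With a reach of 100 kb, Gata4 therefore had 4 OS in place of 1.

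Gata2 (ENSMUSG00000015053.8, plus strand, chr6:88143885-88157024) encodes a factor that blood stem cells need and that endothelial cells also express. OS 1764 at chr6:88139791-88139929 lay 4025 bp upstream of its first start, was 139 bp wide and had a GC content of 71.2%, the highest of the 11 sites. It held AGATAG on both strands, and stood before OS 3808 in both lists. OS 3808 at chr6:88153113-88153259 lay in intron 4, 9301 bp downstream of the first start, and was 147 bp wide with a GC content of 45.6%, the lowest of the 11. Intron 4 of Gata2 is known to hold an enhancer with an E-box next to a GATA motif that acts in blood stem cells and endothelium. OS 3808 held that arrangement, with CATCTG 8 bases before AGATAA.

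That spacing was searched for after the sequence had been read, so it is a description of this site. CATCTG followed by 8 bases and WGATAR on the same strand occurred 2650 times in the genome, and 4 of the 4409 OS held it, of which OS 3808 was 1. With 7, 9 or 10 bases between, the genome held 2734, 1828 and 1813 matches, and 4, 3 and 3 OS held one. The spacing of 8 bases was therefore about as rare in the OS as its neighbours. OS 3808 stood late in the lists, at 86.4% of the common list and 49.9% of the MACS2 list, and OS 1764 earlier, with MACS2 number 1599 at 27.3%. MACS2 alone also called a peak (5294) over exon 6 and the 3′ UTR of Gata2, with 0 WGATAR.

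Gata6 (ENSMUSG00000005836.8, plus strand, chr18:11052508-11085633) encodes the paralog that shares many roles of GATA4 in endoderm. Its OS 1798 at chr18:11051369-11051526 was 158 bp wide and lay 1060 bp upstream of the gene, the shortest distance to a start of a member among the 11 sites. The start of the long noncoding RNA gene 1010001N08Rik was 39 bp from its midpoint, so the site may be assigned to either start. The next protein-coding gene, Mib1, which encodes a ubiquitin ligase of Notch signalling, was 253084 bp away. The OS held 2 TGATAA matches and had MACS2 number 1218. A second site, OS 3558, lay 75905 bp upstream, outside the window. Among the GATA genes, the paper found significant mRNA levels in whole liver for GATA4 and GATA6 only. GATA6 levels stayed steady after Gata4 excision in hepatocytes, from which the paper proposed a lack of cross-regulation. How the sites relate to these levels was not tested.

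Gata1, Gata3 and Gata5 had 0 peaks in the common, SPP and MACS2 lists, and their windows did hold motifs. Gata1 (chrX:7536386-7555197), the main GATA factor of red blood cells, had 203 WGATAR matches in its window, Gata3 (chr2:9778705-9811661), known from T cells, had 316 and Gata5 (chr2:180059838-180069404), known from the heart and gut, had 173. Per 100 kb these were 171, 238 and 158, against a median of 217 over protein-coding genes. Pairs of WGATAR within 50 bp numbered 42, 83 and 12, and 0 of them were in an OS. The nearest common OS lay 1520 kb from the body of Gata1, 1650 kb from Gata3 and 742 kb from Gata5. The median over protein-coding genes was 158 kb, and 7.61%, 6.69% and 17.4% of these genes were as far or farther. For Gata3 a MACS2 peak lay nearer, at 159 kb. Occupancy was sparse on the whole X chromosome, with 30 OS or 0.18 per Mb against 1.77 per Mb on the autosomes, and the part of this in the value of Gata1 was not tested.

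**Figure D2:**
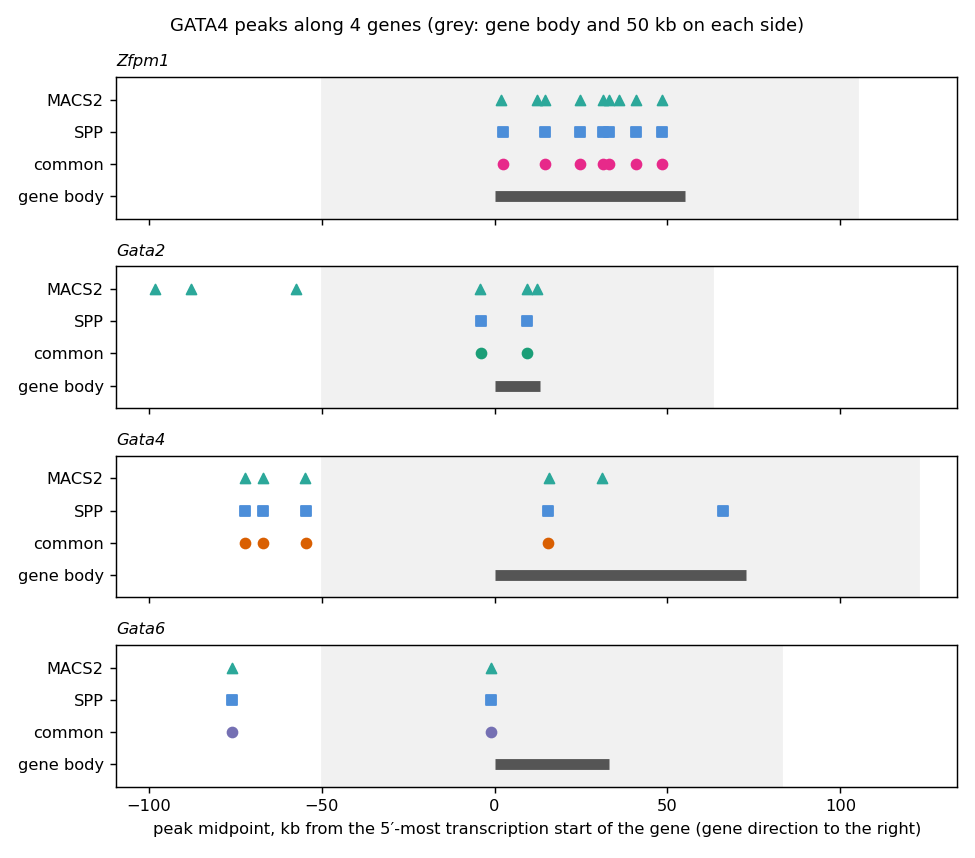
Midpoints of GATA4 peaks in the common, SPP and MACS2 lists (symbols, 1 row per list) by distance in kb from the 5′-most start of Zfpm1, Gata2, Gata4 and Gata6, with the gene body as a dark bar and the window of 50 kb on each side in grey. All 7 common OS of Zfpm1 lie inside the gene body, and 3 OS of Gata4 and 1 of Gata6 lie beyond the window.

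Zfpm1 (ENSMUSG00000049577.7, plus strand, chr8:124806039-124861146) encodes FOG1, the cofactor through which GATA1 acts in red blood cells and platelets. All 7 of its OS lay inside its introns and within 46181 bp. Neighbouring midpoints were 1623 to 12272 bp apart. In the order of the gene, OS 4170 and 534 were in intron 1, OS 109 in intron 2, OS 1917, 305 and 3884 in intron 3, and OS 502 in intron 4. Their midpoints were 2322, 14594, 24811, 31343, 32966, 40823 and 48503 bp downstream of the first start. For OS 3884 and 502 the nearest start of a protein-coding gene was that of Trhr2, at 37783 and 30104 bp, and for the other 5 it was that of Zfpm1. Trhr2 encodes a receptor for thyrotropin-releasing hormone.

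Only 22 protein-coding genes, or 0.0983%, had 7 or more OS by the same rule, and 8, or 0.0357%, had 7 or more inside the gene body. At least 1 OS inside the body was found at 7.67% of protein-coding genes. The density at Zfpm1, 4.51 OS per 100 kb of window, was reached or passed by 35 protein-coding genes, or 0.156%. The mean density was 0.311 and the 99th percentile 2.82. Gata2, Gata6 and Gata4 had 1.77, 0.75 and 0.58 OS per 100 kb, against a 90th percentile of 0.969. The density of Gata2 thus passed the 90th percentile and those of Gata4 and Gata6 did not.

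**Figure D3:**
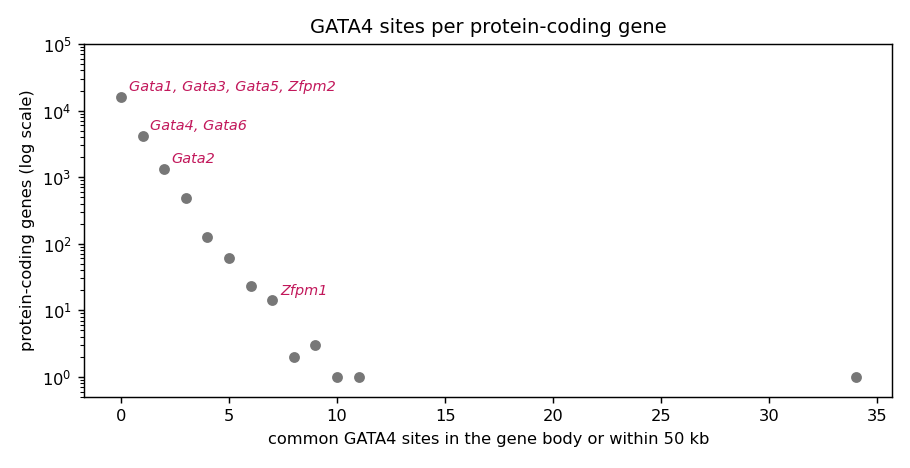
Number of protein-coding genes (vertical log axis) by number of common OS in the gene body or within 50 kb (horizontal axis), 1 point per number of OS, with the 8 genes named beside their points. Of 22380 genes, 16186 had 0 OS, as had 4 of the 8, and Zfpm1 is among 14 genes with 7.

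The other 7 protein-coding genes with 7 or more OS inside the body were 347 to 4430 kb long, and a longer body has more room for OS. Of these genes, Gm20388 had 34, Arhgap26 and Prkce had 10, Bach2 and Fgfr2 had 9, and Dlc1 and Wwox had 7. Gm20388 is a gene model of 4430 kb that spans Zfpm1, so its count includes the 7 sites of Zfpm1. Per 100 kb of gene body, Zfpm1 had 12.7 OS and these 7 genes had 0.299 to 2.59. The lowest value, 0.299, was that of Fgfr2, whose body spans 3010 kb in this annotation. Whether its OS lie at other genes inside that span was not checked. Among the 2182 protein-coding genes with a body of 41.3 to 68.9 kb, close to the 55.1 kb of Zfpm1, only Zfpm1 had 7 or more OS in the body, and the highest count of another gene was 4. By the window rule, Ptprr and Smad6 also ranked among the leading genes, with 8 OS each. The neighbours Gm22, Trhr2 and Zc3h18 had 5, 4 and 1 OS in their windows but 0 in their bodies.

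The sites of Zfpm1 covered most of the list. OS 109 had number 11 of the 5867 MACS2 peaks, at 0.187%, and stood at 2.47% of the common list. At 631 bp it was the widest of all 4409 OS, against a median of 190 bp. OS 305, 502 and 534 followed at 6.92%, 11.4% and 12.1% of the common list, with MACS2 numbers 170, 357 and 364. These 4 were the members of the 11 in the leading 12.5% of the list, a cut outside the planned settings. The next of the 11, Gata2 OS 1764, stood at 40.0%. OS 1917 stood at 43.5%, and OS 3884 and 4170 were late, at 88.1% and 94.6%, with MACS2 numbers 1424, 2471 and 1833. The paper detected GATA4 by ChIP and PCR at FOG1 sites whose reverse primers match the printed stretches of OS 109 and OS 4170.

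OS 4170, the site nearest to the Zfpm1 start, was the only one of the 11 without WGATAR. The 500 bp around its midpoint held 3 matches. AGATAG began 5 bases and TGATAA 22 bases beyond its right end, as the printed stretch shows. The MACS2 peak over it was 2563 bp wide and held 12 matches, so the motifs lay outside the narrow SPP interval. MACS2 alone called 2 more peaks in Zfpm1, number 5469 in intron 1 with 1 WGATAR and number 5301 in intron 3 with 0.

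The window of Zfpm1 was not rich in motifs. It held 225 WGATAR matches in 155 kb, or 145 per 100 kb, below the median of 217 for protein-coding genes. Of these 225, 15 or 6.67% lay in an OS. Over the whole genome, 5734 of 6752563 matches, or 0.0849%, lay in one. At Gata2 the share was 1.8%, from 3 of 167 matches, and at Gata6 0.651%, from 2 of 307. The shares of Zfpm1, Gata2, Gata4 and Gata6 were all above that of the genome, and they were 0 for the other 4. Both follow from grouping the genes by OS. In windows with so few matches, a single match in an OS already gives a share above that of the genome.

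Zfpm2 (ENSMUSG00000022306.7, plus strand, chr15:40486588-40936138) encodes FOG2, the cofactor of GATA4 in the developing heart. It is the longest of the 8 genes, with a body of 450 kb and a window of 550 kb. That window held 1740 WGATAR matches, or 317 per 100 kb, and 308 pairs within 50 bp, but 0 peaks in the common, SPP and MACS2 lists. The nearest OS was 721 kb from the body, and 17.8% of protein-coding genes were as far or farther. The FOG genes thus differed in occupancy in the opposite order to their number of motifs. The paper reported significant mRNA levels in whole liver for FOG1 but not for FOG2, and slightly lower FOG1 levels after Gata4 excision in hepatocytes. After excision of both Gata4 and Gata6 it reported a slightly greater fall of FOG1 mRNA. A link of these levels to the occupancy was not tested.

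Across the 11 sites, numbers in the common list ran from 109 to 4170 with a median of 1798, or 40.8% of the list, and 8 stood before the middle of the list. In the MACS2 list the median stood at 20.8%, against 37.4% for the MACS2 peaks over all common OS. Each of the 11 had a lower percentage in the MACS2 list than in the common list, as had 73.0% of all OS. The sites thus stood earlier in the MACS2 list, and the cause was not tested. The plot of both numbers shows the 4 leading Zfpm1 sites apart from the other 7.

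**Figure D4:**
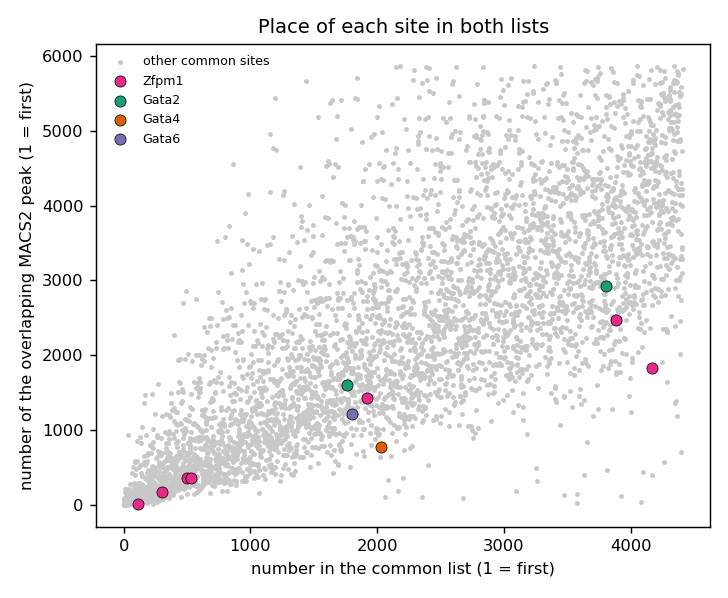
Number of each common OS in the common list (horizontal axis) and number of the MACS2 peak over it (vertical axis), with 1 as the first in each list, for the 11 sites (coloured by gene) and all other OS (grey). Of the Zfpm1 sites, 4 lie near the lower left corner and OS 4170 lies to the right, at 4170 and 1833.

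An exon of a protein-coding gene was overlapped by 0 of the 11 OS and by 11.5% of all OS, so 0 of 11 was near the background. In introns of protein-coding genes lay 9 of the 11 and 43.3% of all OS. For 9 of the 11 the nearest protein-coding start was that of the GATA or FOG gene itself, as it was for 39.4% of the 9416 pairs of an OS and a protein-coding gene with the OS in its window. With 7 of the 11 sites in the introns of Zfpm1, these counts are mostly those of 1 gene. Their median width was 213 bp, and 7 of the 11 were wider than the median of all OS. Their GC content ran from 45.6% to 71.2% with a median of 59.0%. The median of all OS was 49.4%, with a 10th and a 90th percentile of 41.3% and 59.5%, and 10 of the 11 sites were above that median. The sites were thus GC-rich among the OS.

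WGATAR was found in 10 of the 11 sites, or 90.9% (95% Wilson interval 62.3% to 98.4%, for counting error only), against 82.9% of all OS, so this share was near the background. More of the sites held several matches. At least 2 were present in 8 of 11, or 72.7% (43.4% to 90.3%), against 34.7% of all OS, and at least 3 in 3 of 11 against 9.75%. OS 3884 held 4 matches, and 2.02% of all OS held 4 or more. In all there were 22 matches, or 2.0 per site against 1.3, and 0.826 per 100 bp against 0.622. The intervals take the 11 sites as independent, but 7 of them lay at Zfpm1, so these shares are mostly those of 1 gene.

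The motifs of the 11 sites were spread. Of the 22 matches, 12 lay within 50 bp of the midpoint of their site, against 74.0% of the matches of all OS. A wider site has more room for matches far from its midpoint, and the median width was 213 bp against 190 bp for all OS. Most of the matches beyond 50 bp were in sites of Zfpm1. In OS 109 the matches lay at -138.5, -39.5 and 222.5 bp from the midpoint, with negative values to the left. The words were AGATAA in 10, TGATAA in 6, AGATAG in 5 and TGATAG in 1. Over all OS, AGATAA made up 44.6% of the matches, TGATAA 26.8% and AGATAG 17.5%. The plot of motif positions shows each match with its strand.

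**Figure D5:**
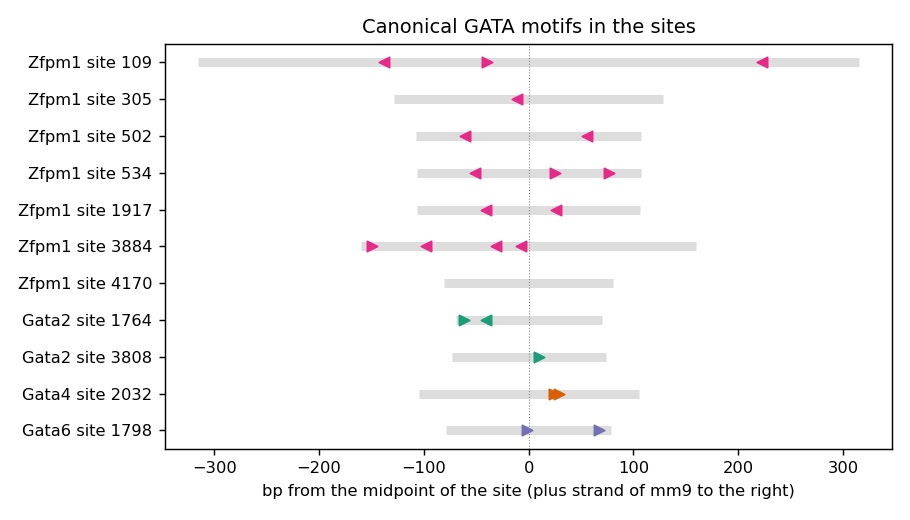
Position in bp from the midpoint of the site (horizontal axis) of every WGATAR match in the 11 OS (1 row each, grey bar to scale), with the arrow giving the strand of the match on mm9 and the colour the gene. OS 109 is the widest and holds 3 spread matches, OS 3884 holds 4, and OS 4170 holds none.

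Other short words were searched for as exact matches on both strands. CANNTG, the E-box of basic helix-loop-helix factors, was in 9 of 11 sites or 81.8%, against 60.3% of all OS. Its form CATCTG was in 3 of 11 or 27.3%, against 15.1%, in OS 3808 of Gata2, OS 2032 of Gata4 and OS 109 of Zfpm1. CCGGAA, of ETS factors, was in 2 of 11 or 18.2%, against 8.94%, in OS 3808 and OS 305. CCACCC, of Krüppel-like factors, was in 2 of 11 against 15.9%, in OS 2032 and OS 109. TGTTTAC, of forkhead factors, was in 0 of 11 against 6.26%, and TGANTCA, of AP-1, in 0 of 11 against 7.55%. With 11 sites, a single site moves such a share by several percentage points.

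The promoters of the 8 genes, taken as 250 bases before to 50 bases after each annotated start, overlapped 0 OS at their 20 starts. Over the 46013 promoters of protein-coding transcripts the share was 1.69%, so 0 of 20 was near the background. WGATAR was in the promoter of 1 of 3 starts of Gata1, with 2 matches, 1 of 2 starts of Gata3, with 1, and 1 of 6 starts of Gata4, with 2. None was in the promoters of Gata2, Gata5, Gata6, Zfpm1 or Zfpm2. Of all promoters, 25.5% held WGATAR.

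Genes whose products work with GATA and FOG proteins were counted by the same rule, against the background of 27.7%. Of 13 genes of the NuRD complex, which FOG1 binds, 6 or 46.2% had at least 1 OS, led by Chd3, which encodes a chromatin remodelling ATPase, with 3 and the histone deacetylase gene Hdac1 with 2. Inside gene bodies the count was 2 of 13, against 7.67%. Of 9 genes for blood partners of GATA1 and GATA2, 8 or 88.9% had at least 1, with 3 at the corepressor gene Cbfa2t3, 2 at Tal1, which encodes an E-box binding partner, and 1 each at Klf1, Ldb1, Lyl1, Runx1, Spi1 (named Sfpi1 in this annotation) and Tcf3. Lmo2, the adaptor between TAL1 and LDB1, had 0. Inside gene bodies the count was 3 of 9, at Tal1, Lyl1 and Runx1, against 7.67%. The OS of the other blood partners, Cbfa2t3 included, lay outside their bodies.

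The 11 OS of the blood partners were 11 distinct sites, and 0 of them were shared with the GATA and FOG genes. Of 7 genes for heart partners of GATA4, 2 or 28.6% had an OS, Srf and Tbx5 with 1 each. Of 5 genes for corepressors and coactivators, 1 had an OS, the corepressor gene Ctbp2. Of 4 other genes with a GATA-type zinc finger, Rere and Zglp1 had 2 each, and Trps1 and Gatad1 had 0. The shares of the heart partners and of the corepressors and coactivators were thus near the background, and those of the blood partners and the NuRD genes were higher as counts, on lists of 9 and 13 genes. All these lists were chosen with earlier results of these data known, so the shares are a description only.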

How the data were processed

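GATA4 ChIP-seq and input DNA of whole adult mouse liver were each listed as 1 sample. Before depositing the peak lists, the authors had placed the reads on mm9 by Bowtie 0.12.7 and used those with a unique position. Peaks came from MACS2 2.0.10 and from a changed version of SPP, run on single and merged replicates with limits from the irreproducible discovery rate, and bedtools 2.16.1 gave the peaks common to both lists. The deposited score of every peak was 1000, and the depth behind a single peak is unknown. Reads in repeats could not be placed uniquely, so occupancy there is not seen.

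Peaks were set against GENCODE M1 genes on NCBI Build 37, the same build as mm9, with 22380 protein-coding genes counted by gene identifier. Motifs were matched exactly on both strands. Overlap required 1 bp. Counting and motif search were tested on simulated data. Python 3.11.15, pandas 2.3.3, numpy 2.4.6, scipy 1.17.1 and pysam 0.24.0 were used. Named were the 8 genes with all their OS, genes with the nearest start or inside a window, up to 10 genes with at least as many OS as Zfpm1, and the 2 or 3 leading genes of each list. The genes with 7 or more OS in the body, the other listed genes with an OS, those named at 0, the peaks beyond 50 kb, the class of genes near the length of Zfpm1 and the spacing search were added after values were seen. The 8 genes, the gene lists and the windows were chosen with earlier results of these data known. No test across samples could be made, and 47 alternatives were planned. Protein sequences were not analysed here, and no sequence of chromosome 18 is printed.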

Additional observations from a re-analysis of the deposited data

How the results depend on the processing

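The counts of 4 genes with an OS, 11 OS in all and 7 at Zfpm1 stayed within 1.5 times of these values under all 8 alternatives of window and list. At Gata4 the count of 1 became 4 with 100 kb on each side, 2 in the SPP list and 2 in the MACS2 list. The share of protein-coding genes with an OS, 27.7%, became 13.7% with 10 kb on each side, 7.67% in the gene body alone and 16.0% in the leading part of the common list up to its middle. The share of the 11 sites with WGATAR, 90.9%, became 100% in the 500 bp around the midpoint and 100% among the sites before the middle of the list. The median place, 40.8%, became 20.8% in the MACS2 list. Each alternative differs by its own construction in window, list or sequence length. No paired analysis was possible because the labels give 1 ChIP sample, and no replicate could be left out for the same reason.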
